A study of Microtus ochrogaster with 40 samples.

Results

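Glucocorticoid signalling was followed in the nucleus accumbens of 40 prairie voles through 6 genes: the receptors Nr3c1 and Nr3c2 and the hormone-responsive genes Fkbp5, Sgk1, Tsc22d3 and Zbtb16. The genes were found by symbol, in any letter case, among the 19130 genes counted, and 4 of the 6 were found: Nr3c2 (ENSMOCG00000010658), Fkbp5 (ENSMOCG00000015956), Sgk1 (ENSMOCG00000008011) and Zbtb16 (ENSMOCG00000001402). Nr3c1 and Tsc22d3 are not analysed here. The rule uses symbols alone, and the genes were chosen with earlier results of these data known.

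Corticosterone and cortisol act on cells by binding receptors that move to the nucleus and change the transcription of target genes. Nr3c2 encodes the mineralocorticoid receptor, which binds these hormones with high affinity in brain neurons, and Nr3c1 the glucocorticoid receptor. Fkbp5 encodes a co-chaperone of the receptor complex that lowers the receptor's affinity for hormone and is itself induced by the hormone, Sgk1 a serum- and glucocorticoid-regulated kinase that acts on ion channels and transporters, and Zbtb16 a zinc finger transcription factor. All 3 rise with glucocorticoids in many tissues, and each also responds to other signals.

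Prairie voles are rodents whose adults form pair bonds, and the nucleus accumbens, in the ventral striatum, takes part in reward and in bonding. Each library held the nuclei of 1 animal after 16 days of housing with either an opposite-sex partner, called a mate, or a same-sex one, called a peer: 11 female mates, 8 female peers, 11 male mates and 10 male peers. The labels give no genotype, age or drug, no animal without a partner, and not which animals lived together, so cage partners may not be independent. The comparisons address whether the genes differ by type of partner, by sex, and by whether the pairing difference is the same in females and males.

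Filtering left 178387 nuclei, between 1767 and 7666 per animal, with a median depth of 653 to 2159 unique molecular identifiers (UMIs, counted RNA molecules) per nucleus. A level is the gene's UMIs per 1000000 UMIs (CPM), both summed over an animal's nuclei of a class, with animals of at least 20 such nuclei. Nuclei were grouped into 14 classes named from marker genes and called X-like, and 7.85% stayed in unnamed clusters. The 3 classes of medium spiny neurons, the main neurons of the striatum, held 16.9%, 16.3% and 8.26% of nuclei, and 19.1% were glutamate neuron-like, a type that the accumbens itself is not known to hold as resident neurons. Male mate 2 stood apart, with the lowest depth, 1.60% of nuclei in the D1 class and most of the nuclei of 1 glutamate neuron-like cluster. Female peer 1 had the highest median mitochondrial share, 0.725%, and a median depth of 914 UMIs. Of all barcodes, 23.1% shared their sequence with a barcode of another library, and no pair of libraries shared more than 1.53% of the smaller one. Levels are compared between classes and animals for 1 gene at a time, not between genes, since tags are not scaled to length.

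No class stood far above the others for the mineralocorticoid receptor gene Nr3c2. Classes were built from the same counts, so levels by class are descriptions without a test. Its level was 46.8 ± 21.4 CPM (SD, n = 40 animals) in other GABA neuron-like nuclei, a cluster led by Vip, Crabp1 and Kit, and 36.6 ± 15.5 CPM (n = 40) in oligodendrocyte-like nuclei. In D2, D1 and eccentric medium spiny neuron-like nuclei, the projection neurons of the striatum, it was 27.0 ± 5.36, 26.7 ± 6.17 and 26.1 ± 7.88 CPM (n = 40 each). These 3 values differed by less than the spread between animals: the D2 level was above the D1 level in 18 of 40 animals. The order at the top was no firmer, since other GABA neuron-like nuclei exceeded oligodendrocyte-like nuclei in 24 of 40 animals and were highest of all classes in 15. This class depended on the clustering: at a resolution of 2 in place of 1, 73.6% of its nuclei fell into a cluster led by Crabp1 and Trh and named parvalbumin interneuron-like, although Pvalb is not among its leading genes, and 24.2% into an unnamed one led by Vip. Nr3c2 was at 31.2 ± 16.6 CPM (n = 39) in the former and 64.6 ± 31.7 CPM (n = 23) in the latter. Within the glutamate neuron-like class the level differed by cluster. The cluster led by Rxfp2 and Hs3st4 held 9.08 ± 4.77 CPM (n = 39) and the cluster led by Ndst4 and Neurod1 30.8 ± 11.0 CPM (n = 39).

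Fkbp5 was highest in medium spiny neurons and microglia. In D1 medium spiny neuron-like nuclei it was at 96.9 ± 23.7 CPM (lowest animal 25.2, median 92.9, highest 147, n = 40), and 19.4% of these nuclei held a UMI of it. In D2 nuclei it was at 85.7 ± 22.3 CPM (38.2, 83.0 and 138, n = 40), and D1 exceeded D2 in 32 of 40 animals. Both lowest values belonged to male mate 2 and rest on 2 and 4 UMIs. In the eccentric class, spiny neurons set apart by genes such as Otof and Foxp2, the level was 41.0 ± 12.9 CPM (n = 40), below D2 in 40 of 40 animals. Among the spiny clusters, Fkbp5 was highest in those led by Col24a1 and Npffr2: 113 ± 35.5 CPM in the D1 cluster against 88.9 ± 22.0 CPM in the cluster led by Pdyn and Reln, and 109 ± 30.3 CPM in the D2 cluster against 71.7 ± 21.8 CPM in the Penk cluster (n = 40 each).

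Microglia-like nuclei had the highest median of Fkbp5, 110 CPM, with a mean of 126 ± 77.6 (n = 39), and exceeded D1 nuclei in 25 of 39 animals. This class rests on few molecules, 384 UMIs in 4510 nuclei, and the animals ran from 0 to 342 CPM. Somatostatin and cholinergic interneuron-like nuclei were at the bottom of the order, at 5.87 ± 4.19 CPM (n = 40) and 5.38 ± 9.38 CPM (n = 25), although their median depths of 1825 and 2007 UMIs were close to that of D2 nuclei. Only 1.20% of cholinergic and 1.28% of somatostatin nuclei held a UMI.

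RNA freed from broken cells can bring a UMI into any droplet, and its size was estimated from 8 markers of medium spiny neurons. Had spiny RNA entered microglia-like nuclei in the proportion of these markers, it would have brought 12.2 CPM of Fkbp5 at the median marker and 28.7 CPM at the highest, against 127 CPM measured over the pooled nuclei. For astrocyte-like nuclei the estimate was 10.0 CPM at the median marker and 64.6 CPM at the highest, against 45.1 CPM measured. For somatostatin interneuron-like nuclei the estimate was 6.17 CPM at the median marker and 28.6 CPM at the highest, against 6.11 CPM measured.

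Sgk1 marked mature oligodendrocytes, the cells that form myelin. Oligodendrocyte-like nuclei held 2259 ± 1000 CPM (SD, n = 40), with the lowest animal at 677, the median at 2131 and the highest at 4489, and 68.9% of nuclei had at least 1 UMI. This was the highest class in 40 of 40 animals, with a median 10.1 times that of vascular-like nuclei, the next class at 217 ± 87.6 CPM (n = 31). Microglia-like nuclei followed at 150 ± 92.2 CPM (n = 39), cholinergic interneuron-like nuclei at 118 ± 43.6 CPM (n = 25) and oligodendrocyte precursor-like nuclei at 85.3 ± 52.2 CPM (n = 40). In the small class of differentiating oligodendrocyte-like nuclei, 325 in all, the pooled level was 779 CPM, between precursors and mature cells. At a depth like that of oligodendrocyte-like nuclei (median 777 against 666 UMIs), 1.99% of astrocyte-like nuclei held a UMI of Sgk1.

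Neurons carried far less Sgk1 and differed by cluster. D1, glutamate and D2 classes were at 51.9 ± 12.4, 48.3 ± 11.1 and 45.9 ± 9.16 CPM (n = 40 each), neighbours in the order that do not differ beyond their spread: D1 exceeded glutamate nuclei in 24 of 40 animals and glutamate exceeded D2 nuclei in 22. The eccentric class was lowest of all, at 17.0 ± 8.17 CPM (n = 40), and within it the cluster led by Otof and Foxp2 held 10.4 ± 6.51 CPM (n = 40) and the cluster led by Col14a1 and Gabrq 40.3 ± 23.7 CPM (n = 39). Among D2 clusters the one led by Cpne7 and Col6a2 held 10.6 ± 9.97 CPM against 50.0 ± 17.2 CPM in the Penk cluster (n = 40 each). Among somatostatin clusters the one led by Npy and Nos1 held 7.19 ± 9.20 CPM (n = 31) against 42.1 ± 17.3 CPM in the cluster led by Kcnc2 and Sst (n = 39). The somatostatin class also holds nuclei with parvalbumin RNA: Pvalb is among the leading genes of the Kcnc2 cluster and leads a further cluster of the class with Nefh. Oligodendrocyte RNA entering at the median of 7 myelin-cell markers would have brought 4.43 CPM to the eccentric class, 4.52 CPM to D1 nuclei and 11.1 CPM to microglia-like nuclei, and at the highest marker 41.3, 37.2 and 68.0 CPM. For oligodendrocyte precursor-like nuclei the estimate was larger, 26.6 CPM at the median marker and 136 CPM at the highest, against 84.3 CPM measured over the pooled nuclei.

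Zbtb16 divided the neurons. Other GABA neuron-like nuclei were highest, at 108 ± 37.3 CPM (41.3 in the lowest animal, 107 at the median and 210 in the highest, n = 40), and this class was first in 37 of 40 animals. At a resolution of 2 the cluster led by Crabp1 and Trh held 78.5 ± 34.9 CPM (n = 39) and the one led by Vip 167 ± 55.8 CPM (n = 23). Oligodendrocyte-like nuclei followed at 46.6 ± 25.2 CPM (n = 40), then immature neuron-like at 39.7 ± 35.3 CPM (n = 39), glutamate neuron-like at 28.2 ± 9.28 CPM (n = 40) and astrocyte-like nuclei at 26.0 ± 18.3 CPM (n = 39), each above the next in 24 to 26 animals. The spiny neurons held almost none: 50 UMIs in 30205 D1 nuclei, 45 in 29025 D2 nuclei and 26 in 14741 eccentric nuclei, or 1.00 ± 2.06, 0.985 ± 1.60 and 0.969 ± 1.45 CPM (n = 40 each). Over pooled nuclei they were at 0.706, 0.703 and 0.965 CPM. RNA from glutamate neurons would bring 0.437, 0.366 and 0.515 CPM at the median marker and 0.618, 0.549 and 0.615 CPM at the highest. RNA from oligodendrocytes would bring 0.0913, 0.0949 and 0.0894 CPM at the median marker. At the highest it would bring 0.751, 0.777 and 0.834 CPM, above the measured D1 and D2 values. Other GABA neuron-like nuclei were not used as a source, and sources were not added together. Cholinergic interneuron-like nuclei held 4 UMIs in 999 nuclei.

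**Figure D1:**
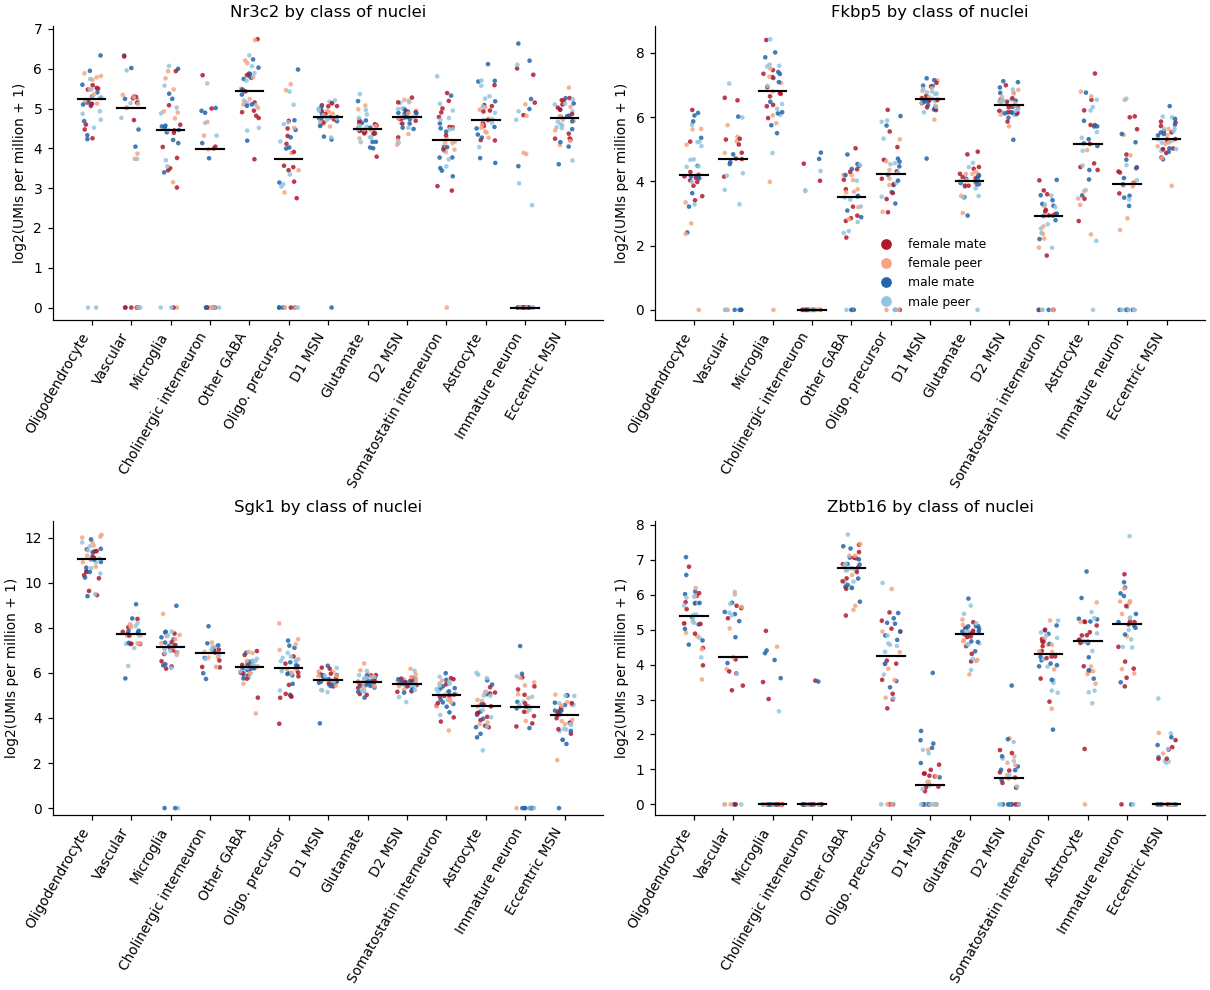
Level of each gene by class of nuclei, as log2 of CPM plus 1 on the vertical axis, with 1 point per animal coloured by group and a black line at the median. Sgk1 in oligodendrocyte-like nuclei lies above every other class, Fkbp5 is high in D1, D2 and microglia-like nuclei, and Zbtb16 is near 0 in the 3 spiny classes.

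Levels also varied between animals of the same class. The biological coefficient of variation, edgeR's estimate of the spread between animals beyond counting error, was 0.398 for Sgk1 in oligodendrocyte-like nuclei, where 259 of 5973 genes had a higher value and the median gene had 0.188. For Fkbp5 in astrocyte-like nuclei it was 0.740, with 28 of 7928 genes higher and a median of 0.162, and for Zbtb16 in the same nuclei 0.489, with 119 genes higher. Nr3c2, the receptor gene, was at 0 CPM in the lowest animal of oligodendrocyte-like and of D1 nuclei. Its coefficient varied between classes, which rests on low levels and was not tested. It was 0.0924 in oligodendrocyte-like and 0.0956 in D1 nuclei, where 5702 of 5973 and 9789 of 10739 genes had a higher one, and 0.232 in other GABA neuron-like and 0.230 in astrocyte-like nuclei, where 840 of 6822 and 1576 of 7928 did. Part of the spread ran with blocks of 10 library numbers of the labels. In the 4 blocks Fkbp5 averaged 25.6, 32.6, 39.3 and 72.3 CPM in astrocyte-like nuclei, 89.0, 93.1, 95.8 and 110 CPM in D1 and 110, 95.8, 120 and 176 CPM in microglia-like nuclei, highest in the last block each time. The SD in the last block was 47.4 CPM in astrocyte-like, 16.0 CPM in D1 and 97.3 CPM in microglia-like nuclei. Other classes did not all rise: Fkbp5 averaged 17.3, 14.4, 14.0 and 16.0 CPM in glutamate neuron-like nuclei. In eccentric nuclei it averaged 44.0, 37.9, 38.2 and 44.1 CPM. Nr3c2 over all nuclei averaged 29.4, 26.4, 25.8 and 22.5 CPM. The labels do not say what the numbers stand for.

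An animal with high Fkbp5 in D1 nuclei tended to have high Fkbp5 in D2 and astrocyte-like nuclei, and less firmly in eccentric and microglia-like nuclei. The gene's log2 CPM was compared across animals for every pair of the 6 classes in which it passed the filter on low counts. Of 97 tests over the 4 genes, adjusted together by the Benjamini-Hochberg method, 17 had an adjusted permutation p under 0.05 by Spearman's rho, and all 17 were positive. Fkbp5 gave 9 of its 15 pairs, Sgk1 5 of 55, Zbtb16 3 of 6 and Nr3c2 0 of 21, with 1 Nr3c2 pair at an unadjusted p under 0.05. The share of such pairs called over all genes was not computed. A positive rho was common: among 5377 genes tested in at least 8 classes, the middle gene had a median rho of 0.22. For Nr3c2 the median rho was 0.19, against 0.29 for the 4861 genes tested in the same 7 classes, of which 3681 had a higher one.

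Between D1 and D2 nuclei Fkbp5 gave rho = 0.82 and Pearson's r = 0.87 (both permutation p = 1e-05, the smallest the permutations can give, adjusted p = 0.00032, n = 40). Without the 2 animals farthest from the median of D1, r was 0.84. Astrocyte-like nuclei followed the spiny neurons, with rho = 0.65 and r = 0.64 against D1 and rho = 0.64 and r = 0.65 against D2 (permutation p = 1e-05 and adjusted p = 0.00032 for each, n = 39). Microglia-like nuclei followed astrocyte-like nuclei with rho = 0.59 (permutation p = 0.00015) and r = 0.61 (p = 5e-05), n = 38. With means of these blocks removed, rho was 0.84 between D1 and D2, 0.54 and 0.64 between astrocyte-like nuclei and D1 and D2, and 0.49 between astrocyte-like and microglia-like nuclei. D1 nuclei gave rho = 0.47 with eccentric nuclei (permutation p = 0.0026, r = 0.42, p = 0.010, n = 40) and rho = 0.43 with microglia-like nuclei (permutation p = 0.0059, r = 0.28, p = 0.081, n = 39). These pairs depended on the setting: they stayed called in 7 of 10 and 6 of 9 alternatives, and neither was called by Pearson's r or with means of blocks of 10 library numbers removed. Microglia-like nuclei gave rho = 0.50 both with D2 and with eccentric nuclei (permutation p = 0.0014 for each, n = 39), called in 9 of 9 alternatives each. None of the 5 pairs with glutamate neuron-like nuclei, the largest class, had an adjusted p under 0.05: rho was 0.34 with eccentric, 0.28 with astrocyte-like, 0.27 with D1, 0.11 with D2 and -0.02 with microglia-like nuclei. Fkbp5 was low in glutamate neuron-like nuclei, at 15.9 CPM over the pooled nuclei. Free spiny RNA would bring an estimated 12.3 CPM there at the median marker and 43.3 CPM at the highest. Over all 15 pairs the median rho was 0.47. The same median over the 2152 genes tested in all 6 classes was 0.33, and 500 of them had a higher one.

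Spiny markers gave no relation with an adjusted p under 0.05 to Fkbp5 in glia. These sums do not track how much Fkbp5 the spiny RNA of an animal held. Spiny RNA entering at a steady share would carry that level, so free RNA as a source was not tested. The summed 8 spiny markers in astrocyte-like nuclei ran from 816 to 1645 CPM between animals and gave rho = -0.22 and r = -0.22 with Fkbp5 there (permutation p = 0.18 and 0.17, adjusted p = 0.33 over 7 such checks, n = 39). In microglia-like nuclei they ran from 134 to 6941 CPM and gave rho = -0.22 and r = 0.0020 (permutation p = 0.19 and 0.99, adjusted p = 0.33, n = 39). None of the 8 library measures tested, among them depth, mitochondrial share and shares of nuclei, had an adjusted p under 0.05 with any of the genes within a class.

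**Figure D2:**
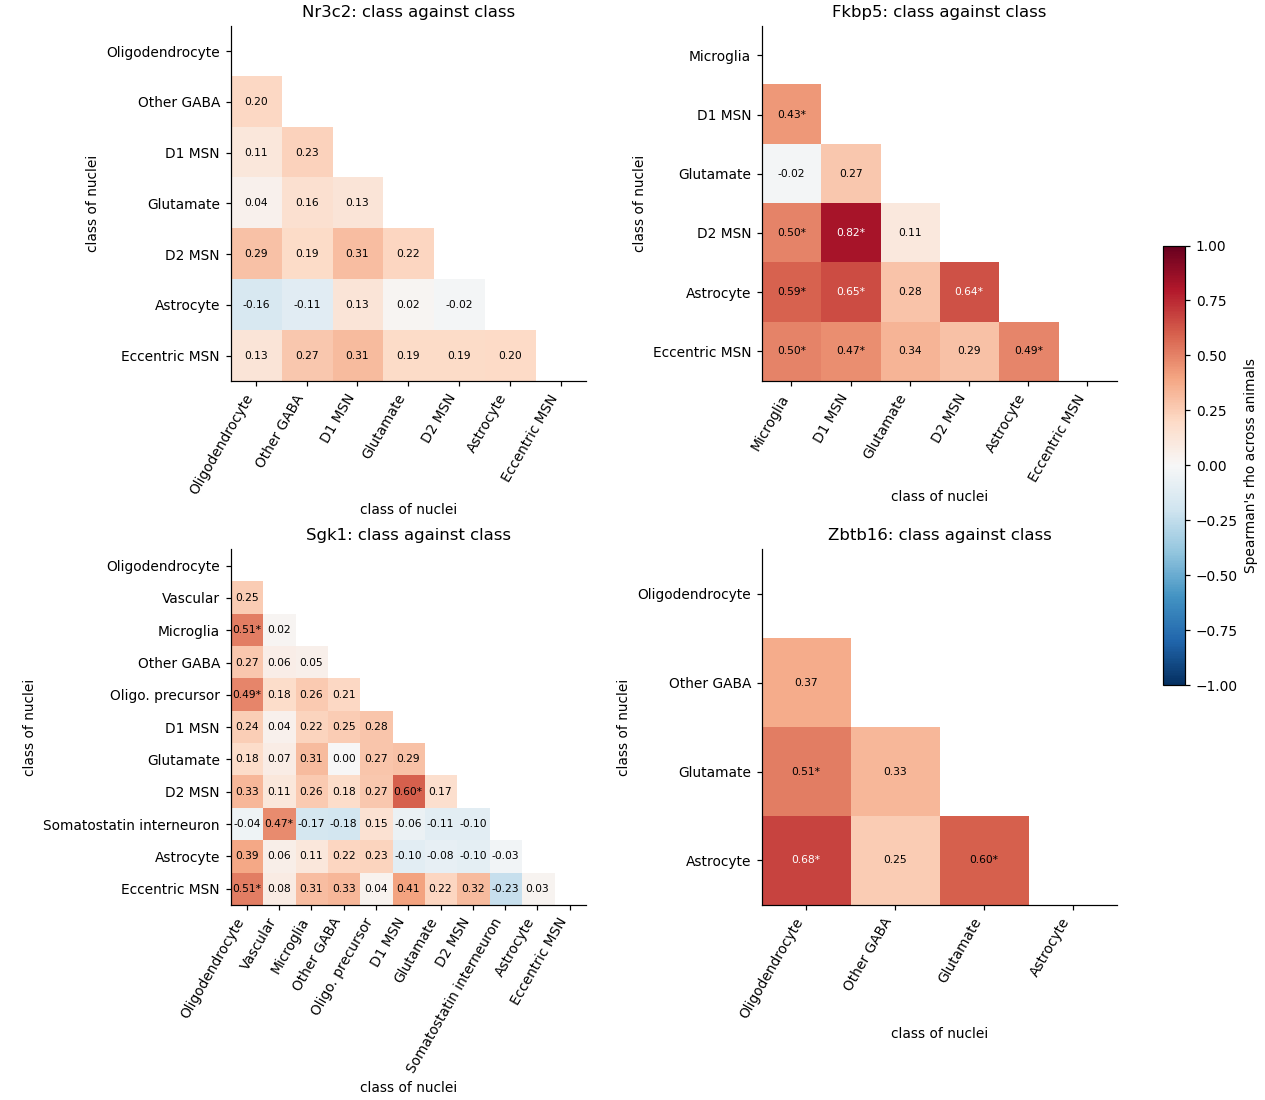
Spearman's rho across animals between the level of a gene in 1 class of nuclei and its level in another, for the classes in which the gene was tested, with an asterisk where the adjusted permutation p is under 0.05. Fkbp5 is positive in every one of its starred pairs, and no pair of Nr3c2 carries an asterisk.

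Zbtb16 levels were also shared between classes. Astrocyte-like and oligodendrocyte-like nuclei gave rho = 0.68 and r = 0.70 (both permutation p = 2e-05, adjusted p = 0.00048, n = 39), astrocyte-like and glutamate neuron-like nuclei rho = 0.60 (permutation p = 9e-05) and r = 0.54 (p = 0.00035), n = 39, and glutamate neuron-like and oligodendrocyte-like nuclei rho = 0.51 (permutation p = 0.00079) and r = 0.56 (p = 0.00018), n = 40. The median rho over its 6 pairs was 0.44, against 0.20 for the 4886 genes tested in the same 4 classes, of which 381 had a higher one. The fourth class, other GABA neuron-like nuclei, gave no pair with an adjusted p under 0.05.

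For Sgk1 the 5 pairs were D1 with D2 (rho = 0.60, permutation p = 4e-05, n = 40), oligodendrocyte-like with microglia-like (rho = 0.51, permutation p = 0.00094, n = 39), with eccentric (rho = 0.51, permutation p = 0.0010, n = 40) and with precursor-like nuclei (rho = 0.49, permutation p = 0.0018, n = 40), and somatostatin with vascular-like nuclei (rho = 0.47, permutation p = 0.0083, n = 31). Pearson's r was 0.38, 0.49, 0.50, 0.50 and 0.33 in the same order, with permutation p = 0.020, 0.0017, 0.0012, 0.0012 and 0.072. By Pearson's r the pairs of D1 with D2 and of somatostatin with vascular-like nuclei were not called (adjusted permutation p = 0.094 and 0.23). The median over 55 pairs was 0.18, below the 0.28 of the 1156 genes tested in the same classes, 878 of which had a higher one. Summed myelin-cell markers gave rho = 0.16, -0.16 and 0.29 with Sgk1 in eccentric, microglia-like and precursor-like nuclei (permutation p = 0.34, 0.34 and 0.067), and r = -0.14, -0.33 and 0.22 (permutation p = 0.40, 0.044 and 0.18), n = 40, 39 and 40. As for Fkbp5, such sums do not track the level in the source class, so free RNA as a source was not tested. With means of blocks of 10 library numbers removed, the oligodendrocyte pairs with microglia-like and precursor-like nuclei had adjusted permutation p = 0.056 and 0.073. The pair of somatostatin and vascular-like nuclei stayed called in 3 of 8 alternatives, and its adjusted permutation p was 0.056 without female peer 1 and between 0.10 and 0.23 in the other 4 that lost it.

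**Figure D3:**
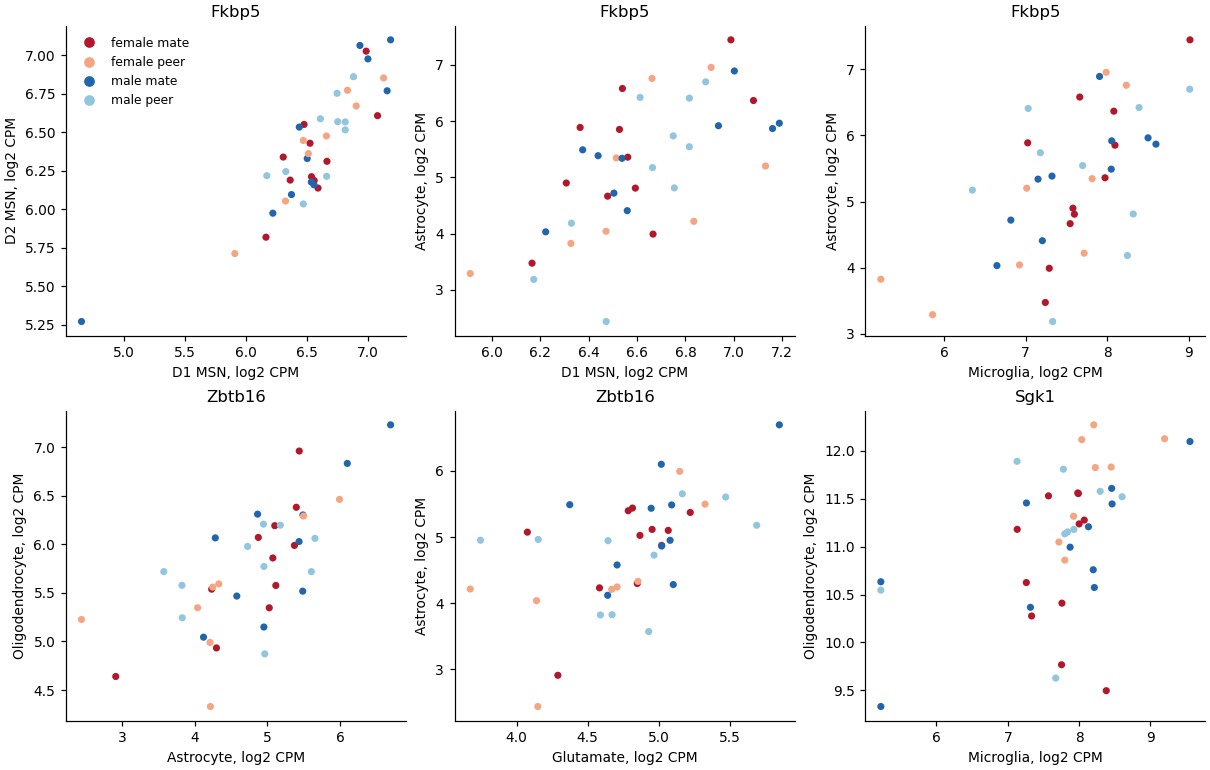
Level of 1 gene in 2 classes of nuclei, as log2 CPM on both axes, with 1 point per animal coloured by group. Points of the 4 groups overlap, and the Fkbp5 panel of D1 against D2 is the tightest (rho = 0.82). For Sgk1 in oligodendrocyte-like nuclei, 11 of 11 female mates lay below the mean CPM of female peers. There 7 of 11 male mates lay below the mean of male peers.

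Pairs of different genes were also compared across animals, and the share called among pairs of other genes was not computed. Of 34 pairs of 2 genes within a class or over all nuclei, 3 had an adjusted permutation p under 0.05 by Spearman's rho and 0 by Pearson's r, where 9 had an unadjusted p under 0.05. Fkbp5 and Zbtb16 were high in the same animals in astrocyte-like nuclei (rho = 0.50, permutation p = 0.0016, r = 0.43, p = 0.0070, n = 39). Nr3c2 and Zbtb16 were opposed in oligodendrocyte-like nuclei (rho = -0.52, permutation p = 0.00075, r = -0.27, p = 0.094, n = 40) and over all nuclei (rho = -0.48, permutation p = 0.0021, r = -0.43, p = 0.0056, n = 40). With means of blocks of 10 library numbers removed, all 3 had an adjusted permutation p above 0.05 (0.22, 0.22 and 0.27). Over all nuclei the class makeup also differed, and the glutamate neuron-like share ran from 0.831% to 45.8% between animals. The pair over all nuclei stayed called with depth and the shares of D1, D2 and glutamate neuron-like nuclei removed. Shares of other GABA neuron-like and oligodendrocyte-like nuclei were not removed, so class makeup as a source was not tested. Fkbp5 and Sgk1, both taken as glucocorticoid targets, had a mean rho of 0.048 over the 6 classes that tested both.

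The genes most like each member were ranked by mean rho over the classes that tested both. They were chosen for this value, so it is a description without a test. For Sgk1 the first 2 of 5376 genes were Nfkbia, the inhibitor of NF-kappaB, and Ddit4, an inhibitor of mTOR signalling, with mean rho of 0.26 each over 8 and 11 classes; Rdx, Capzb and Ankmy2 followed, and Car11, Pcdh17 and Bcs1l were least like it. Both leaders are on a list of 31 further glucocorticoid-responsive genes, of which 28 were used. That list, too, was chosen with earlier results of these data known, so counts of its genes are descriptions. The likeness was closest in oligodendrocyte-like nuclei, where Nfkbia ranked 1 and Ddit4 ranked 2 of 5972 genes, with rho = 0.83 and 0.79 and r = 0.84 and 0.79 (n = 40). In the other 7 classes the rho of Nfkbia ran from -0.27 in D1 to 0.40 in vascular-like and 0.57 in microglia-like nuclei. That of Ddit4 ran from -0.01 in other GABA neuron-like to 0.38 in precursor-like nuclei over the other 10.

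In these oligodendrocyte-like nuclei Nfkbia ran from 0 to 360 CPM between animals (median 67.1, n = 40) and Ddit4 from 138 to 496 CPM (median 238). The rho with Sgk1 was 0.81 and 0.75 with group means removed, 0.82 and 0.74 with means of blocks of 10 library numbers removed, and 0.82 and 0.78 without male mate 2. Of the 13 listed responsive genes tested there, 7 were among the highest 5% in rho with Sgk1, namely Nfkbia, Ddit4, Errfi1 (0.62), Pdk4 (0.50), Cdkn1a (0.47), Klf9 (0.35) and Bcl6 (0.32). The median rho of the 13 listed genes was 0.32, against 0.020 over all genes of the class. In microglia-like nuclei 3 of 6 listed genes were in the highest 5%, with Nfkbia (0.57) at rank 3 of 2506 genes, whereas in D1 nuclei 0 of 18 were.

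For Fkbp5 the genes ranked first of 5303 were ENSMOCG00000019219, Psma3, Pik3r1, Klf9 and Cox7c, with mean rho between 0.33 and 0.37, and Arl5b, ENSMOCG00000012216 and Ipo13 were least like it. Klf9, a transcription factor on the responsive list, had a mean rho of 0.36 and the narrowest range, 0.33 to 0.41 over 5 classes. In astrocyte-like nuclei 8 of 18 listed genes were among the highest 5% in rho with Fkbp5, led by Hif3a (0.47), Cebpb (0.47) and Per1 (0.44), with a list median of 0.25 against -0.00081 over all genes. The same count with Zbtb16 was 8 of 18, led by Cebpb (0.47) and Tiparp (0.43), with a list median of 0.28. In D1 and D2 nuclei it was 2 of 18 with Fkbp5, and the list medians were -0.017 and -0.037.

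Responsive genes were not among those most like Nr3c2: 0 of the listed genes were among its highest 5% in any of its 7 classes, and over all nuclei the list median was -0.23 against 0.0071 for all genes. Among the genes most like it were Zscan26, ENSMOCG00000012950, Cdk13 and Ppip5k2 (mean rho 0.28 to 0.30), and Tspan3, Tmem47 and Tmem30a least. Zbtb16 was tested in 4 classes, too few for this ranking.

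**Figure D4:**
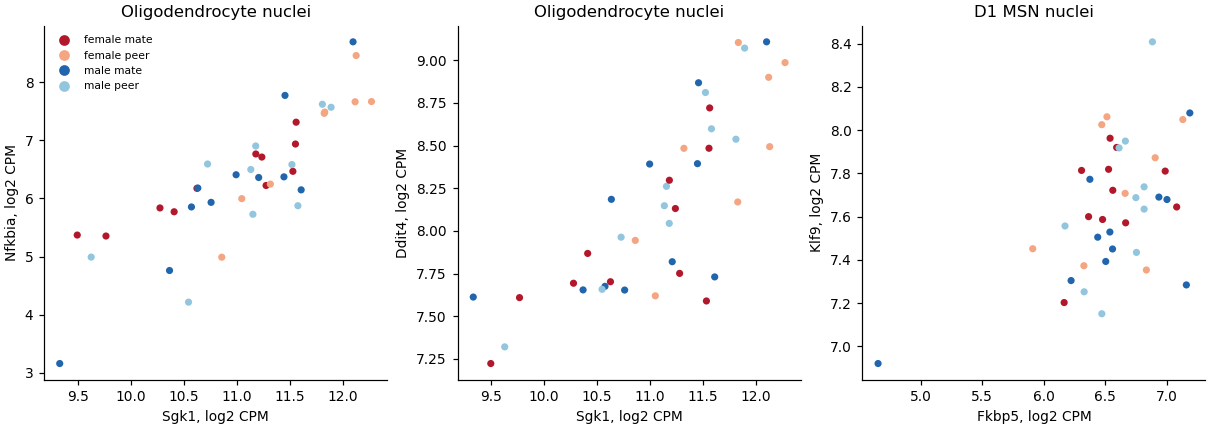
Levels of responsive genes in 1 class of nuclei, as log2 CPM on both axes, with 1 point per animal coloured by group: Sgk1 with Nfkbia and with Ddit4 in oligodendrocyte-like nuclei, and Fkbp5 with Klf9 in D1 nuclei. The first 2 panels form narrow bands (rho = 0.83 and 0.79) and the panel of Fkbp5 a looser one (rho = 0.41).

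Pairing was tested with edgeR's quasi-likelihood test over all genes. None of the 4 genes was called over all nuclei, where 0% of 13687 genes were called and 6.62% had an unadjusted p under 0.05, and none of 28 pairs of a member and a class was called within classes, where 0% of 81788 pairs were called and 4.9% had an unadjusted p under 0.05. At an unadjusted p under 0.05 there were 1 of 4 and 2 of 28, all for Sgk1 and all lower in mates. DESeq2 also called 0, with the same 1 and 2 at an unadjusted p under 0.05. The median log2 fold change of the 28 pairs was -0.010, against -0.0011 over all pairs.

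Over all nuclei Sgk1 was at 104 ± 40.4 CPM in female mates (lowest 55.3, median 101, highest 187, n = 11), 162 ± 44.8 CPM in female peers (99.0, 169 and 212, n = 8), 102 ± 30.7 CPM in male mates (53.5, 106 and 145, n = 11) and 120 ± 48.7 CPM in male peers (59.0, 127 and 188, n = 10). Mates and peers overlapped in both sexes. The log2 fold change, mates minus peers, was -0.44 (SE 0.15, edgeR adjusted p = 0.73). In a sum over all nuclei, fewer nuclei of a class and less RNA per nucleus cannot be told apart: oligodendrocyte-like nuclei made up 6.69% ± 2.60 of nuclei in mates (n = 22) and 7.57% ± 2.76 in peers (n = 18), and across the 40 animals their share gave rho = 0.68 and r = 0.68 with Sgk1 over all nuclei (both permutation p = 2e-05, adjusted p = 0.0051 over all such relations).

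Within oligodendrocyte-like nuclei Sgk1 was at 1847 ± 790 CPM in female mates (701, 2099 and 2861), 3195 ± 1093 CPM in female peers (1680, 3375 and 4489), 2044 ± 914 CPM in male mates (677, 1947 and 3892) and 2199 ± 857 CPM in male peers (723, 2119 and 3552), with the lowest, median and highest animal in brackets. Every female mate lay below the mean of female peers, 5 of 11 below the lowest of them, and the ranges overlapped. The median mitochondrial share per library was also higher in female peers, 0.410% ± 0.167, than in female mates, 0.312% ± 0.0765. It was 0.314% ± 0.0669 in male mates and 0.316% ± 0.0521 in male peers, and no fit held it as a term. The log2 fold change was -0.45 (SE 0.18, adjusted p = 0.96 by edgeR) over both sexes, -0.79 (SE 0.26, adjusted p = 1.0) in females and -0.12 (SE 0.25, adjusted p = 1.0) in males, and the difference between the sexes, -0.66 (SE 0.36), was not called (adjusted p = 1.0).

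Sgk1 in these nuclei also differed by blocks of 10 library numbers of the labels, with means of 1748, 2791, 1739 and 2758 CPM (n = 10 each), and the groups were spread unevenly over the blocks. The female peers numbered 0, 4, 2 and 2 in the 4 blocks and the female mates 4, 3, 2 and 2. The male peers numbered 2, 0, 4 and 4 and the male mates 4, 3, 2 and 2. Within blocks, female peers were at 3395 ± 1184 CPM against 1857 ± 598 CPM in female mates in block 2, at 2138 ± 298 against 2084 ± 883 CPM in block 3 and at 3852 ± 901 against 2463 ± 362 CPM in block 4. The 2 female groups were closest in block 3. Male peers were at 2135 ± 744 CPM against 1890 ± 935 CPM in male mates in block 1. In block 3 they were at 1521 ± 614 against 1430 ± 3.46 CPM, and in block 4 at 2910 ± 590 against 1652 ± 634 CPM. Block 2 held no male peer, and its male mates were at 2918 ± 973 CPM. These within-block values were chosen after seeing the data and were not tested. With blocks as a term the female log2 fold change was -0.63, and with at least 1000 UMIs per nucleus it was -0.56 (adjusted p = 1.0 by edgeR for both).

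In oligodendrocyte precursor-like nuclei, with 1 to 28 UMIs of Sgk1 per animal, female mates were at 51.1 ± 28.4 CPM (12.4, 43.3 and 105) and female peers at 132 ± 77.5 CPM (63.8, 113 and 292). Sgk1 there averaged 87.4 ± 45.3 CPM in male mates (31.6, 78.3 and 172) and 83.3 ± 24.4 CPM in male peers (36.3, 91.0 and 118). Of the 11 female mates, 8 lay below the lowest female peer. The highest value was that of female peer 1. The log2 fold change was -0.54 (SE 0.19, edgeR adjusted p = 0.96) over both sexes, -1.16 (SE 0.28, unadjusted p = 8.5e-05, adjusted p = 1.0) in females and 0.08 (SE 0.27) in males, and the difference between the sexes was -1.23 (SE 0.39, unadjusted p = 0.0023, adjusted p = 1.0). Without female peer 1 the female log2 fold change was -1.0, and with blocks of 10 library numbers as a term -1.06. Within blocks 2, 3 and 4 female mates were at 52.7 ± 28.0, 44.6 ± 17.0 and 84.5 ± 29.5 CPM (n = 3, 2 and 2). Female peers were at 147 ± 100, 67.4 ± 4.97 and 167 ± 18.9 CPM (n = 4, 2 and 2). Free oligodendrocyte RNA would bring an estimated 26.6 CPM to this class at the median marker and 136 CPM at the highest, against 84.3 CPM measured. The adjusted p of the female difference by edgeR or DESeq2 lay between 0.144 and 1.0 in the 10 alternatives.

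**Figure D5:**
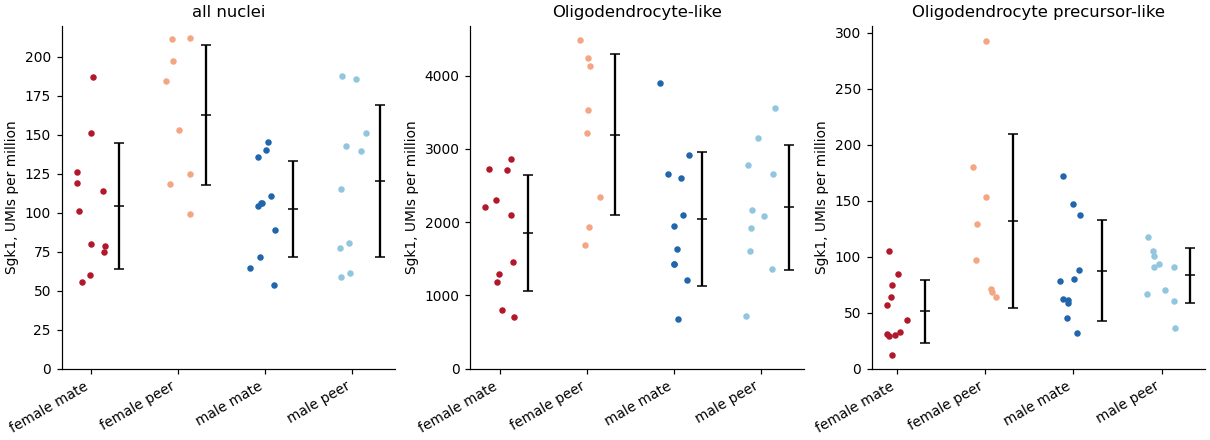
Sgk1 in CPM, on axes starting at 0, over all nuclei, in oligodendrocyte-like and in oligodendrocyte precursor-like nuclei, with 1 point per animal by group and the mean and SD in black. Female peers have the highest mean in each panel, and the groups overlap.

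None of the other 3 genes had an unadjusted p under 0.05 for pairing. Over all nuclei Fkbp5 was at 54.7 ± 14.0 CPM in mates (n = 22) and 50.5 ± 11.1 CPM in peers (n = 18), which gave 0.12 on the log2 scale (SE 0.11, adjusted p = 0.80 by edgeR). Nr3c2 was at 25.8 ± 3.44 and 26.2 ± 3.91 CPM (log2 fold change -0.02, SE 0.06), and Zbtb16 at 15.5 ± 5.27 and 15.4 ± 6.85 CPM (0.01, SE 0.16), with edgeR adjusted p = 0.96 and 0.99. In D1 nuclei Fkbp5 was at 96.2 ± 27.3 CPM in mates and 97.8 ± 19.2 CPM in peers, with a log2 fold change of 0.02 (SE 0.10). The fit weighs the sexes equally and normalizes by TMM, so its sign can differ from that of plain means. In astrocyte-like nuclei it was at 46.1 ± 37.9 CPM (n = 21) and 39.1 ± 35.9 CPM (n = 18), a log2 fold change of 0.19 (SE 0.35).

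Sex and the interaction were compared in the same fits. Over all nuclei 0.0219% of genes were called for sex and 0% for the interaction, and within classes 0.022% and 0% of pairs, with none of the 4 genes among them by edgeR or DESeq2. At an unadjusted p under 0.05 edgeR gave 0 of 4 and 0 of 28 for sex, where 8.53% of all genes and 5.22% of all pairs passed. For the interaction it gave 0 of 4 over all nuclei, against 2.07% of genes, and 1 of 28 within classes, against 2.71% of pairs: Sgk1 in precursor-like nuclei. Taken within females, the pairing difference had an unadjusted p under 0.05 in 1 of 4 genes over all nuclei (7.28% of all genes) and in 2 of 28 pairs (4.82% of all pairs), each of them Sgk1. Within males it did in 0 of 4 (1.39% of genes) and 0 of 28 (2.78% of pairs).

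Other genes of the pathway gave no call for pairing, sex or the interaction, over all nuclei or within classes. Of the 28 further responsive genes used, 26 were tested for pairing within classes in 138 pairs, of which 14 had an unadjusted p under 0.05 (10.1%, against 4.9% of all gene-class pairs), 4 higher and 10 lower in mates. The median log2 fold change was -0.05, against -0.0011 over all pairs, which is also the background of the other lists. Pairs repeat a gene over classes of the same animals and are not independent. The lowest p were those of Mfsd2a, a lipid transporter, in oligodendrocyte-like nuclei (log2 fold change -0.53, SE 0.14), Arl4d in eccentric nuclei (0.43, SE 0.15) and Nfkbia in microglia-like nuclei (-0.55, SE 0.19), each with edgeR adjusted p = 0.96.

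Of the receptor's chaperones and co-chaperones, 10 genes in 106 pairs, 10 pairs had an unadjusted p under 0.05 (9.43%, against 4.9% of all pairs) and all 10 were higher in mates, with a median log2 fold change of 0.02. Fkbp4, the co-chaperone that favours movement of the receptor to the nucleus, had the lowest p, at 0.40 (SE 0.12) in astrocyte-like and 0.35 (SE 0.12) in precursor-like nuclei on the log2 scale (adjusted p = 0.96 by edgeR). Among the 13 coregulators 3 of 118 pairs (2.54%) had an unadjusted p under 0.05, all higher in mates, with a median of 0.07 and the lowest p for Ncor1, a corepressor, in microglia-like nuclei (0.47, SE 0.16). Of 5 genes of steroid metabolism tested, 1 of 14 pairs passed the unadjusted threshold, Hsd11b1 in astrocyte-like nuclei. This enzyme regenerates active glucocorticoid inside cells and had a log2 fold change of -0.51 (SE 0.18) for mates minus peers and of 0.62 (SE 0.18) for females minus males (edgeR adjusted p = 0.96 and 0.77).

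Kinases related to Sgk1 and its substrates, 8 genes in 65 pairs, gave 6 pairs (9.23%, against 4.9% of all pairs) with an unadjusted p under 0.05, all higher in mates, with a median log2 fold change of 0.05 and the lowest p for Ndrg2, an Sgk1 substrate, in other GABA neuron-like nuclei (0.34, SE 0.14). Immediate early genes, a sign of neuronal activation or handling, gave 2 of 62 pairs (3.23%), both higher in mates, with a median of 0.05 and the lowest p for Egr1 in oligodendrocyte-like nuclei (0.51, SE 0.25). Of the other steroid receptors Pgr alone was tested, in 6 classes, with 0 pairs at an unadjusted p under 0.05.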

How the data were processed

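Single-nucleus RNA-seq of the nucleus accumbens gave 1 library for each of 40 animals. The deposited files hold raw UMI counts per gene and barcode, made by the authors with Cell Ranger 3.1.0 per the submitters' processing notes; the genome build and annotation are not given in the sources used here. Removed were 6375 barcodes under 500 UMIs, all of male mate 2, and 2148 above 5% mitochondrial UMIs. Male mate 2 reached down to 206 UMIs per barcode, whereas the other libraries began at 500 or 501. Called doublets, 7608 in all (4.09%, from simulated doublets with an assumed rate of 0.8% per 1000 barcodes), were also left out. Nuclei were clustered with leidenalg 0.10.2 at a resolution of 1. Clusters were named from 18 marker lists by a rule set after the clusters were seen.

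Counts were summed per animal and class (at least 20 nuclei per animal, 12 classes with at least 6 animals in each group) and tested with edgeR 4.0.16 (quasi-likelihood test, TMM, filterByExpr, 1 mean for each of the 4 groups), with Benjamini-Hochberg adjustment over all genes or all gene-class pairs. The p-values measure the spread between animals and take the animals as independent, which cage partners may not be. Co-variation used log2 CPM with a prior count of 2 and 100000 permutations. Free RNA was estimated from markers of a source class.

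The genes and the gene lists were chosen with earlier results of these data known. Named from a list were the called genes, else up to 3 with the lowest p. Those like a member were the 5 highest and 3 lowest in mean rho among genes tested in at least 8 classes; 1 of these is not reported here. Alternatives were DESeq2 1.42.0, no filter, depth or blocks of 10 library numbers as a term, other clustering, nucleus and animal filters, doublets kept, and libraries left out. Fits were tested on simulated data. Totals were between 2915363 and 13180576 UMIs per library after filtering.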

Additional observations from a re-analysis of the deposited data

Results flagged for a closer look

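Of 70 groups of 4 to 10 animals tested for a single animal far from the others, 3 held one, and chance gives about 1 in 20. Male mate 10 had 108 CPM of Fkbp5 in astrocyte-like nuclei, and the next of the 10 male mates had 58.1 CPM. Female peer 1, the library of highest mitochondrial share, had 393 CPM of Sgk1 in microglia-like nuclei, and the next of the 8 female peers had 205 CPM. Male peer 9 had 210 CPM of Zbtb16 in other GABA neuron-like nuclei, and the next of the 10 male peers had 117 CPM.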

How the results depend on the processing

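None of the 4 genes was called for pairing, sex or the interaction under any alternative run. The 152 alternative values of levels by class moved by less than the spread between animals; at a resolution of 2 no other GABA neuron-like class was left to compare. Of 118 alternative fold changes 115 kept their direction. The other 3 were the pairing difference of Zbtb16 over all nuclei, 0.0073 as reported, which turned to -0.040 at 1000 UMIs per nucleus, -0.015 without male mate 2 and -0.0045 without female peer 1, and was 0.0075 without male peer 1. Pairs of 2 genes within classes depended on the setting: 3 of 34 were called, against 6 with depth and class shares removed, 5 of 35 at a resolution of 2, and 0 with block means removed, with Pearson's r and, of 24, at 1000 UMIs. Between classes 17 of 97 were called, against 13 with block means removed and 2 of 38 at 1000 UMIs, where fewer pairs could be tested. Leaving out male mate 2, male peer 1 or female peer 1 gave 3 to 3 within classes and 17 to 23 between, the 23 being of 103 tests without female peer 1. Of 184 alternative correlations of the 20 named ones 159 stayed on their side of the threshold and 25 did not; the cause was not tested. The Fkbp5 pairs of astrocyte-like nuclei with D1, D2, eccentric and microglia-like nuclei, and of D1 with D2, and the 3 Zbtb16 pairs stayed called in all of theirs. So did the Fkbp5 pairs of microglia-like nuclei with D2 and with eccentric nuclei. Fkbp5 of D1 with eccentric and with microglia-like nuclei stayed called in 7 of 10 and 6 of 9, and Sgk1 of somatostatin with vascular-like nuclei in 3 of 8. Over all genes, calls for pairing within classes went from 0 to 4 with no filter, for sex and the interaction within classes from 18 to 39 with no filter, and over all nuclei from 3 to 5 with DESeq2. Leaving out female peer 1 and removing block means before correlations were chosen after seeing the data. No paired analysis was possible because no label ties animals together and replicate numbers only follow accession order within each group; pairs of adjacent library numbers were not fitted. Depth limits the small classes: precursor-like nuclei held 1 to 28 UMIs of Sgk1 per animal.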
